A study of Mus musculus with 25 samples.

Results

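The interaction of Aldh2 genotype with the milder of the study's ethanol regimens was described in the mouse duodenum, from polyadenylated RNA of 21 of the 25 libraries of the series. These are the 4 groups that form a diet by genotype square: WT_Con (4 libraries), WT_Half (7), KI_Con (4) and KI_Half (6). WT libraries came from male C57BL/6N mice and KI libraries from male Aldh2KI mice, in which the Aldh2 gene carries a knock-in change that the labels do not describe further. Mice were 8 weeks old at the start. The Con groups ate a control diet for 8 weeks, and the WT_Half and KI_Half groups ate a diet with 2.5% ethanol for 8 weeks and received 2 g/kg ethanol by gavage 2 times per week. Tissue was collected 9 h after a last ethanol gavage, for which the study's description states 5 g/kg. Whether the control mice were gavaged, when they were collected and whether WT_Half and KI_Half mice received the stated last dose is stated in none of the sources used here, so gavage and time of day cannot be told apart from the diet. Nothing in the labels says that libraries came from separate mice, and p-values measure the spread between these libraries. Totals ran from 27.3 to 44.8 M (mega) counts per library.

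The interaction is the change on ethanol in knock-in mice minus the change on ethanol in wild-type mice, (KI_Half - KI_Con) - (WT_Half - WT_Con), on the log2 scale. A positive value can arise when a gene lies higher in knock-in than in wild-type duodenum on ethanol, when it lies lower in knock-in duodenum on the control diet, or both. Levels of all 4 groups are therefore given beside each value, as counts per M counts of a library after normalisation by the trimmed mean of M values (CPM).

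Swallowed ethanol is oxidised first to acetaldehyde and then, largely by the mitochondrial enzyme that Aldh2 encodes, to acetate. Acetaldehyde is reactive and binds proteins and DNA. The duodenal epithelium meets ethanol early, and its enterocytes carry the digestive enzymes and carriers of the brush border, while submucosal Brunner glands secrete mucus. Stressed cells can slow protein synthesis through the integrated stress response, in which the transcription factor ATF4 raises genes of amino acid supply, and inflamed epithelium makes oxidants, antimicrobial proteins and chemokines.

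The intestinal markers Sis and Vil1 had at least 766 and 1490 CPM in all 21 libraries. Pancreatic acinar transcripts were present in 5 control libraries (WT_Con 1, 3 and 4 and KI_Con 1 and 2), which had over 10 CPM of Ctrb1, while the highest ethanol library had 8.85. The gland mucin Muc6 ran from 11.7 to 21300 CPM in WT_Con and from 17.3 to 4520 in KI_Con. WT_Con 3 stood farthest apart on the second principal component and held 2036 CPM of Muc5ac, a mucin of the gastric surface, against at most 4.10 CPM in the other 20 libraries. WT_Half 1 stood farthest apart on the third component. In whole tissue, fewer cells of a type and less RNA per cell cannot be told apart.

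Aldh2 itself had no interaction beyond its error. It was counted at 490, 460, 454 and 500 CPM in WT_Con and at 458, 411, 421 and 458 in KI_Con. On ethanol it had 296 to 505 CPM in WT_Half (median 464) and 314 to 463 in KI_Half (median 345), so the groups overlapped. The Aldh2 interaction was -0.15 ± 0.18 (SE; edgeR quasi-likelihood test, Benjamini-Hochberg adjusted p = 0.725). Since a knock-in need not alter the amount of transcript, these values do not check the genotype labels.

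No gene passed for the interaction. With edgeR, 0 of 17006 genes tested (0%) had an adjusted p under 0.05, and the smallest was 0.277, for Ighv1-66, an antibody variable segment named here after its value was seen. An unadjusted p under 0.05 was found for 2162 genes (12.7%), of which 1127 (6.63%) were positive and 1035 (6.09%) negative. DESeq2 called 36 of 15982 genes (0.225%), 29 positive (0.181%) and 7 negative (0.0438%). Limma-voom with a quality weight per library called 1138 (6.69%), 416 positive (2.45%) and 722 negative (4.25%), and without these weights, an alternative chosen after the data were seen, 0, with 2116 at an unadjusted p under 0.05. Of the 36 DESeq2 calls, 23 were also called by limma-voom with weights in the same direction. On simulated counts of this design (17005 genes), edgeR recovered 34 of 100 genes with a 2-fold and 87 of 100 with a 4-fold interaction, with 6 false calls. DESeq2 recovered 46 and 92 with 33 false calls, and limma-voom with weights 35 and 85 with 6 false calls. These rates describe the simulated counts only. Whether they hold with libraries that stand apart, as WT_Con 3 and WT_Half 1 did, was not tested. The same applies to acinar transcripts in part of the controls. The rates therefore do not tell how many calls on the real counts were true, or how many genes were missed. The number at an unadjusted p under 0.05 was 1149 without WT_Con 3, 3571 without WT_Half 1, 3262 without KI_Half 7 and 702 without the 5 control libraries with acinar transcripts (the acinar-rich controls).

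Ethanol changes had the same sign in both genotypes for most genes and were mostly of larger size in knock-in duodenum. Across the 17006 genes, which are not independent replicates and share libraries, the log2 change in KI and that in WT had a Pearson r of 0.644 and a Spearman rho of 0.647, given as a description. The sign was the same for 75% of genes. The median absolute change was 0.254 in WT and 0.399 in KI, and the change was larger in KI for 69.3% of genes. The KI change rests on 10 libraries and the WT change on 11. Whether these medians and shares hold with single libraries left out was not tested.

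**Figure D1:**
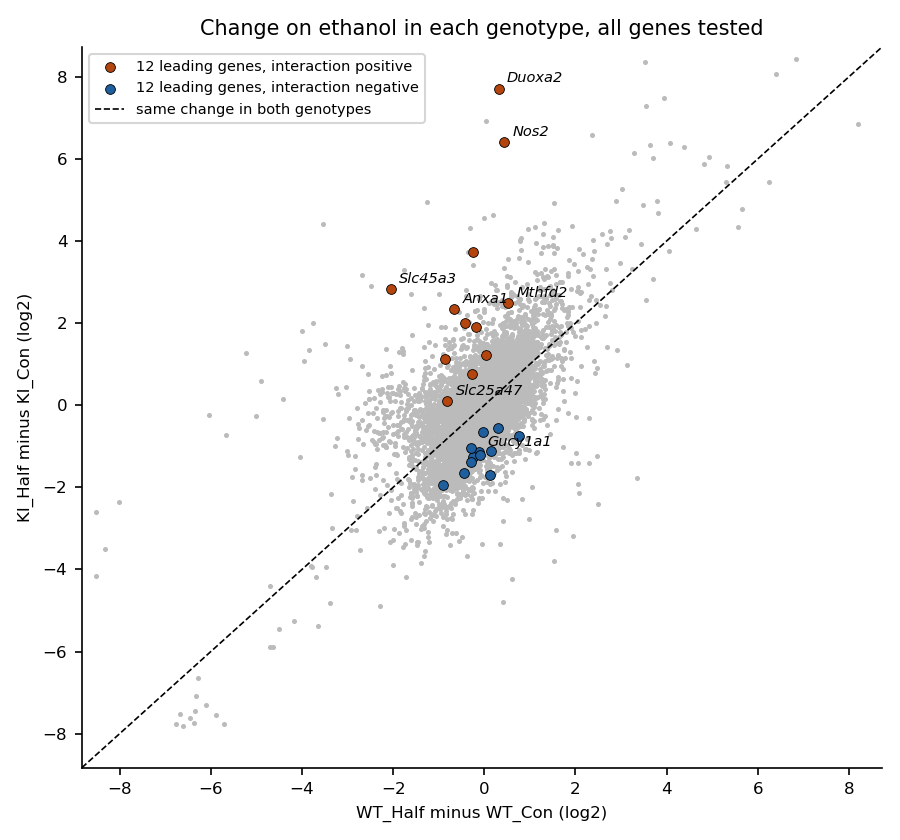
Log2 change on ethanol in wild-type duodenum (x axis, WT_Half minus WT_Con) against that in knock-in duodenum (y axis, KI_Half minus KI_Con), 1 grey point per gene for 17006 genes tested. Vertical distance from the dashed line is the interaction; the 12 leading positive genes (orange) lie above it, Duoxa2 at 0.31 and 7.71, and the 12 leading negative genes (blue) below it.

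The 24 genes that led the ranking, 12 in each direction, shared a crossing pattern. All 12 positive genes had a lower mean in KI_Con than in WT_Con and a higher mean in KI_Half than in WT_Half. All 12 negative genes had the reverse. Over all genes tested, KI_Con lay below WT_Con for 78.8% of the 8665 genes with a positive interaction, and KI_Half above WT_Half for 72.3%. Of the 8341 genes with a negative interaction, 75.8% had KI_Con above WT_Con and 80.3% had KI_Half below WT_Half. The share with both was not counted. The choice by interaction favours such crossing, and the counts are a description. Each of the 24 had an edgeR adjusted p of 0.327, and adjusted p over all alternatives ran from 0.00784 (DESeq2) to 0.960 (edgeR without acinar-rich controls).

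Among the 12 leading positive genes, the oxidant genes Duoxa2 and Nos2 had the largest values. Duoxa2 (ENSMUSG00000027225, GRCm38 chromosome 2, 122298900 to 122302885, plus strand) encodes the maturation factor of the hydrogen peroxide source DUOX2. It stood at 0.832, 1.01, 6.73 and 4.04 CPM in WT_Con and at 0.496, 0.583, 0.310 and 0.627 CPM in KI_Con. On ethanol it ran from 0.851 to 16.3 CPM in WT_Half (median 2.22) and from 0.830 to 367 CPM in KI_Half (median 61.7). KI_Half 1, 2, 3 and 5 lay above every other library, with 140, 28.7, 367 and 94.7 CPM, while KI_Half 7, with 1.79 CPM, lay within the wild-type range and KI_Half 6, with 0.830, next to its lower end. The Duoxa2 interaction was 7.40 ± 1.77, from a change of 0.31 ± 1.07 in WT and 7.71 ± 1.58 in KI. Its adjusted p was 0.327 with edgeR, 0.00784 with DESeq2 and 0.239 with limma-voom with weights. Its neighbour Duox2, the oxidase itself, had means of 16.8 ± 23.2 (SD, n = 4) in WT_Con, 1.63 ± 0.480 (n = 4) in KI_Con, 17.4 ± 27.1 (n = 7) in WT_Half and 198 ± 253 CPM (n = 6) in KI_Half. The Duox2 interaction was 6.88 ± 1.81 (adjusted p of 0.327 with edgeR, 0.0165 with DESeq2 and 0.126 with limma-voom with weights). It was 2.96 without the acinar-rich controls, against 5.89 for Duoxa2.

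Nos2 (ENSMUSG00000020826, chromosome 11, 78920787 to 78960254, plus strand), the inducible nitric oxide synthase, was highest in KI_Half 1, 2 and 3. It had 0.658, 0.923, 0.495 and 2.34 CPM in WT_Con, 0.305, 0.389, 0.619 and 0.118 CPM in KI_Con, and 0.526 to 4.30 CPM in WT_Half (median 1.00). KI_Half 1, 2, 3 and 5 had 88.7, 50.4, 42.3 and 4.91 CPM, and KI_Half 6 and 7 had 0.553 and 2.19, so that KI_Half 5 stood near the highest WT_Half library. The Nos2 interaction was 5.97 ± 1.46, and it ranged from 5.30 to 6.52 when single libraries were left out. With all libraries its adjusted p was 0.327 with edgeR, 0.0140 with DESeq2 and 0.235 with limma-voom with weights.

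**Figure D2:**
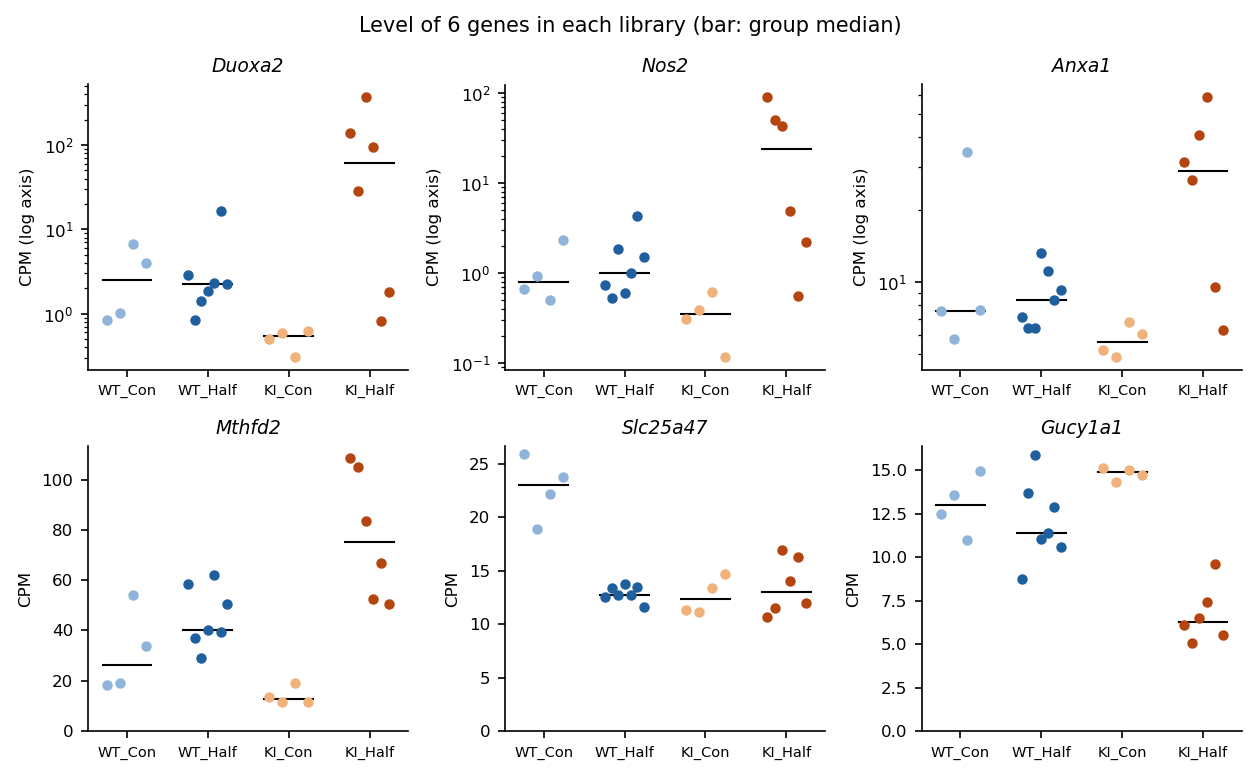
CPM of 6 genes in each of the 21 libraries (1 point per library, bar at the group median), on a log axis for Duoxa2, Nos2 and Anxa1 and on a linear axis from 0 for Mthfd2, Slc25a47 and Gucy1a1. The KI_Half libraries hold 4 high points for Duoxa2 and 3 for Nos2, Slc25a47 is high in WT_Con, and all KI_Half libraries of Gucy1a1 lie below all KI_Con libraries.

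Other inflammation genes of the same 4 KI_Half libraries had large values with wide errors. Ccl20, Lcn2, Il33 and Cxcl1, like Nos2, were chosen from earlier results on KI_Half against WT_Half in these data. That comparison is a part of the interaction, so the choice can favour large values. Ccl20, a chemokine of the epithelium that draws dendritic cells and lymphocytes, had 2.70 to 5.13 CPM in WT_Con, 3.02 to 5.88 in KI_Con and 0.877 to 6.23 in WT_Half. KI_Half 1, 2, 3 and 5 had 182, 179, 151 and 44.5 CPM of Ccl20, and KI_Half 6 and 7 had 1.42 and 3.25. Its interaction was 4.57 ± 1.22 (adjusted p of 0.327 with edgeR, 0.0493 with DESeq2 and 0.290 with limma-voom with weights). Lcn2, a siderophore-binding protein, had 4.22 ± 1.14, with 20.9 to 1071 CPM in KI_Half (median 249) and 9.42 to 62.9 in WT_Half (median 23.3). Its controls had 2.45 to 9.17 CPM in WT_Con and 2.75 to 5.41 in KI_Con. For the alarmin Il33 the interaction was 3.13 ± 0.99, and 2.04 without WT_Con 3, which had 52.4 CPM against 7.87 to 10.8 in the other WT_Con libraries. The neutrophil chemokine Cxcl1, at 1.51 ± 0.75, was at 1.33 to 6.76 CPM in WT_Half and 1.86 to 18.6 in KI_Half. It had under 1 CPM in every control library. For Lcn2, Il33 and Cxcl1 the adjusted p was 0.327, 0.334 and 0.402 with edgeR. With DESeq2 it was 0.0533, 0.130 and 0.308, and with limma-voom with weights 0.207, 0.158 and 0.420.

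Among lists, antimicrobial, oxidant and acute-phase genes had a positive interaction for 17 of 24 genes tested with a median of 0.86, where 51% of all genes were positive with a median of 0.0087. By unadjusted p under 0.05, 5 were positive and 2 negative. Over all genes tested these shares were 6.63% and 6.09%, to be set beside such counts of every list. Inflammatory cytokines and chemokines were positive for 15 of 25 (median 0.50, 4 positive and 2 negative by unadjusted p). NF-kB regulators and bacterial sensors were positive for 15 of 23 (median 0.21, 7 and 0). These medians moved with single libraries: the antimicrobial one was 0.43 without KI_Half 5 and 1.35 without KI_Con 2, that of cytokines 0.09 without WT_Con 4 and 0.77 without WT_Half 7, and that of NF-kB regulators 0.15 without KI_Half 5 and 0.37 without KI_Con 4. Without the 5 acinar-rich control libraries, which left 1 WT_Con and 2 KI_Con libraries, the medians were 0.76, 0.03 and 0.03. The NF-kB consensus was searched by the same method as the element described below for ATF4. It was found in 8 of 30 promoters of the cytokine list (26.7%) and in 3.9% of 32851 promoters of all genes. The antimicrobial and oxidant list held it in 2 of 19, and the leading positive genes in 1 of 12 (8.33%). The lists were chosen by pathway and not by the interaction, so a higher share can come with that choice. In the cytokine list Il18, which enterocytes make constitutively, stood out on the negative side at -0.77 ± 0.23: WT_Half (142 to 225 CPM) lay above every WT_Con library (71.8 to 111), whereas KI_Half (96.3 to 172) overlapped KI_Con (113 to 152). WT_Half and WT_Con lay apart, in either direction, for 5.32% of all genes tested. The Il18 value was -0.29 without the acinar-rich controls.

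Most genes of the integrated stress response list had positive values, 19 of the 23 tested. Mthfd2 (ENSMUSG00000005667, chromosome 6, 83305691 to 83325908, minus strand), a mitochondrial enzyme of one-carbon metabolism, had 18.1, 19.0, 54.1 and 34.0 CPM in WT_Con and 13.5, 11.7, 19.0 and 11.6 in KI_Con. It ran from 29.0 to 61.9 CPM in WT_Half (median 40.3) and from 50.5 to 108 in KI_Half (median 75.3). All KI_Half libraries lay above all KI_Con libraries, while WT_Half overlapped WT_Con through replicates 3 and 4 of the latter. The Mthfd2 interaction was 1.95 ± 0.41, and it was 1.55 without WT_Con 3 and 1.10 without the acinar-rich controls. With all libraries its adjusted p was 0.327 with edgeR, 0.0102 with DESeq2 and 0.0209 with limma-voom with weights. Such separation of KI_Half from KI_Con is common, being found for 27.3% of all genes tested, against 5.32% for WT_Half and WT_Con.

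Atf4, the transcription factor of this response, had 214, 190, 266 and 233 CPM in WT_Con, 230, 185, 210 and 207 in KI_Con, 220 to 293 in WT_Half (median 270) and 279 to 475 in KI_Half (median 413). Its interaction was 0.69 ± 0.19 (adjusted p of 0.327 with edgeR, 0.111 with DESeq2 and 0.0260 with limma-voom with weights). The cystine carrier Slc7a11 had 3.33 ± 0.88, and 2.21 without WT_Con 3. Its means were 1.08 ± 1.17 CPM in WT_Con, 0.440 ± 0.261 in KI_Con, 2.16 ± 1.42 in WT_Half and 8.67 ± 4.71 in KI_Half. The stress hormone Gdf15 had 1.26 ± 0.46 and the transcription factor Cebpb 1.28 ± 0.48, which was 0.84 without WT_Con 1. For Slc7a11, Gdf15 and Cebpb the DESeq2 adjusted p was 0.0284, 0.199 and 0.202. With limma-voom with weights it was 0.102, 0.0647 and 0.270. Atf4, Gdf15 and Cebpb were chosen from earlier results on KI_Half against WT_Half in these data, which can favour large interaction values. Atf4 had 0.44, Slc7a11 1.23 and Gdf15 0.34 without the acinar-rich controls. By unadjusted p under 0.05, 6.63% of all genes tested were positive and 6.09% negative. Of the 23 list genes tested, 19 were positive with a median of 0.86, and by unadjusted p under 0.05, 11 were positive and 1 negative. The negative one was Slc3a2, the partner chain of Slc7a11, at -0.43 ± 0.17, chosen for mention after its value was seen. Averaged over the list, log2 CPM was 3.84, 3.54, 4.42 and 4.10 in WT_Con and 3.77, 3.59, 4.01 and 3.81 in KI_Con. It was 4.05 to 4.86 in WT_Half (median 4.43) and 4.69 to 5.58 in KI_Half (median 5.18). The list median was 0.60 without WT_Con 3 and 0.38 without the acinar-rich controls, where 15 list genes were positive and 8 negative. By unadjusted p, 8 list genes were positive without WT_Con 3 and 14 without WT_Half 1. Of all genes tested, 523 and 2100 were positive by unadjusted p in these 2 fits.

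Promoters of the stress list are shown because its members had positive values together and ATF4 has a known element, whose letters TGATGNAA were searched on both strands of the 250 bases before each RefSeq start (GRCm38.p6). A match was found in 8 of 27 promoters of 23 list genes (29.6%) and in 3.45% of 32851 promoters of all genes. The list was chosen as genes of the ATF4 response, so a higher share can come with that choice. It is no result of the interaction. The table holds 12 promoters for 10 of the 12 leading positive genes, Mthfd2 among them, and none had a match; Nos2 and Sft2d3 were not searched. Slc7a11 held 2 matches, of which 1 is shown. A match is a description of letters and not a site of binding. Windows of 30 bases around the match are given for 7 genes that were tested, 5′ to 3′ on the strand that reads the element, with the element in capitals. They come from chr6:7693214-7693243 (minus), chr1:191183425-191183454 (plus), chr2:119351038-119351067 (minus), chr7:126625562-126625591 (plus), chr14:55540152-55540181 (minus), chr3:50443661-50443690 (minus) and chr19:27216809-27216838 (minus), in the order listed.
Asns: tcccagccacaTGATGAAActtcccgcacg
Atf3: cgcggacttggTGATGCAAgtgcgagaagg
Chac1: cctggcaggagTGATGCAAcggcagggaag
Nupr1: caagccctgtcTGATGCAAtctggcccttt
Pck2: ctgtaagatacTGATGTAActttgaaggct
Slc7a11: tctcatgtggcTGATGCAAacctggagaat
Vldlr: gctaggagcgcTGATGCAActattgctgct

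The 7 genes had interactions from 0.30 to 3.33. The highest after Slc7a11 were Chac1, a glutathione-degrading enzyme, at 3.21 ± 1.03, and the lipoprotein receptor Vldlr at 2.81 ± 0.96. Nupr1, a stress-induced nuclear protein, had 1.77 ± 0.64, the asparagine synthetase Asns 1.35 ± 0.46 and the mitochondrial carboxykinase Pck2 of gluconeogenesis 0.69 ± 0.31. Atf3, a stress-induced transcription factor, had 0.30 ± 0.54. For Nupr1 the means were 34.2 ± 27.2 CPM in WT_Con (n = 4), 12.2 ± 4.37 in KI_Con (n = 4), 13.3 ± 4.75 in WT_Half (n = 7) and 16.3 ± 5.40 in KI_Half (n = 6), so its positive value came with a high WT_Con mean and not with a high KI_Half mean. Without WT_Con 3 Asns had 0.71 and Atf3 -0.10. Without the acinar-rich controls Chac1 had 1.94, Vldlr 0.09, Nupr1 -1.19, Asns 0.38, Pck2 0.12 and Atf3 -0.84.

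Genes of epithelial repair and EGF receptor ligands were positive for 24 of 25 genes tested, with a median of 1.13. By unadjusted p, 11 were positive and 1, Tm4sf4, negative at -1.01 ± 0.45, where 6.63% of all genes were positive and 6.09% negative. Anxa1 (ENSMUSG00000024659, chromosome 19, 20373428 to 20390944, minus strand), an annexin of wound repair, had 7.56, 5.78, 34.7 and 7.64 CPM in WT_Con and 5.19, 4.89, 6.81 and 6.08 in KI_Con. It ran from 6.41 to 13.3 CPM in WT_Half and was 31.5, 26.5, 41.0 and 58.7 in KI_Half 1, 2, 3 and 5 and 9.58 and 6.28 in KI_Half 6 and 7. The Anxa1 interaction was 2.99 ± 0.73, and 1.99 without WT_Con 3. With all libraries its adjusted p was 0.327 with edgeR, 0.0165 with DESeq2 and 0.0598 with limma-voom with weights. Plaur, the urokinase receptor, had 3.21 ± 0.91, and 1.88 without WT_Con 3. The EGF receptor ligand Areg had 2.11 ± 0.79. Anxa1 had 1.56, Plaur 1.32, Areg 1.02 and Tm4sf4 -1.66 without the acinar-rich controls, and Tm4sf4 had -0.68 without KI_Con 4. The 11 positive genes by unadjusted p were 3 to 14 with single libraries left out. The list mean log2 CPM was 5.82 in WT_Con 3 and 4.04 to 4.53 in the other WT_Con libraries, against 4.97 to 5.73 in WT_Half. The list median was 0.72 without WT_Con 3 and 0.19 without the acinar-rich controls, where 18 list genes were positive and 7 negative.

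**Figure D3:**
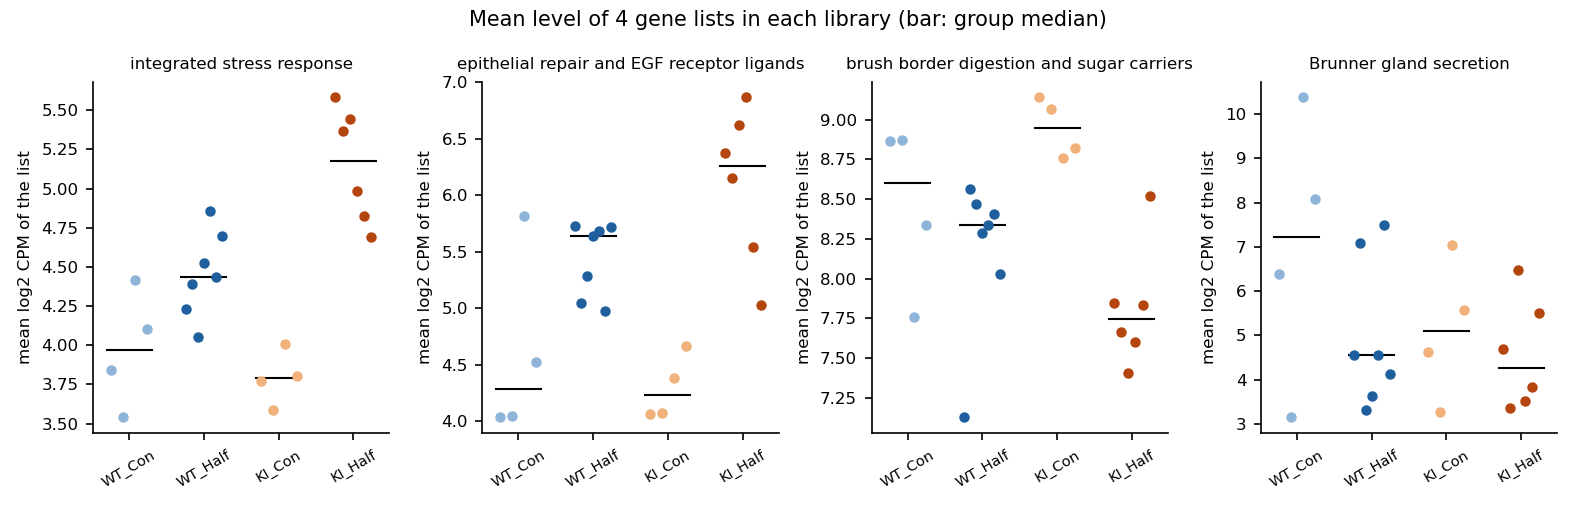
Mean log2 CPM of 4 gene lists in each of the 21 libraries (1 point per library, bar at the group median). The stress list runs from 4.69 to 5.58 in KI_Half against 4.05 to 4.86 in WT_Half, and the brush border list runs from 7.40 to 8.52 in KI_Half against 8.76 to 9.14 in KI_Con, while Brunner gland genes reach 10.4 in WT_Con 3.

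The remaining leading positive genes were of 2 kinds. Slc45a3, a sugar transporter family member, Acacb, which makes malonyl-CoA at mitochondria, and Galnt3, which starts mucin-type glycosylation, were high in WT_Con 3. Slc45a3 stood at 53.1 CPM in WT_Con 3 and at 1.37 to 5.18 CPM in the other WT_Con libraries, and its interaction of 4.88 ± 1.15 was 2.62 without WT_Con 3. Acacb had 50.6 CPM there and 9.82 to 14.3 CPM in the other 3, and went from 1.98 ± 0.49 to 1.12. Galnt3 had 146 CPM in WT_Con 3 and 30.6 to 86.9 in the others, and went from 2.09 ± 0.51 to 1.56. The autoantigen gene Ica1 (2.44 ± 0.58), the phospholipase Pla2g12a (1.18 ± 0.28) and Ankrd22 (3.98 ± 0.97) also had their highest WT_Con level in replicate 3, and their values without it were 1.81, 0.87 and 3.00. Of the other genes of the 12, Anxa1 went from 2.99 to 1.99 and Mthfd2 from 1.95 to 1.55 without WT_Con 3. In the same fit Duoxa2 had 6.71 (7.40 with all libraries), Nos2 6.23 (5.97), Slc25a47 0.93 (0.92) and Sft2d3 0.94 (1.02). Without the acinar-rich controls all 12 stayed positive at smaller values for most, with Slc45a3 at 1.20, Ankrd22 at 1.17, Galnt3 at 0.66, Acacb at 0.63, Ica1 at 0.49 and Pla2g12a at 0.23; only Sft2d3 was higher, at 1.28.

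Slc25a47 (ENSMUSG00000048856, chromosome 12, 108836046 to 108856815, plus strand), a mitochondrial carrier known from liver, showed a difference that lay in the controls. It had 25.9, 19.0, 22.2 and 23.8 CPM in WT_Con, 11.4, 11.2, 13.4 and 14.7 in KI_Con, 11.6 to 13.8 in WT_Half and 10.7 to 16.9 in KI_Half. Every WT_Con library lay above every other library, and the other 3 groups overlapped. Of all genes tested, 5.32% had WT_Half and WT_Con apart in either direction, and 4.58% had KI_Con and WT_Con apart. The Slc25a47 interaction was 0.92 ± 0.19, from -0.82 ± 0.13 in WT and 0.10 ± 0.14 in KI, and 0.52 without the acinar-rich controls. With all libraries its adjusted p was 0.327 with edgeR, 0.00987 with DESeq2 and 0.0212 with limma-voom with weights. Sft2d3, a membrane protein of vesicle transport, had 4.27 to 5.47 CPM in WT_Half and 5.81 to 8.54 in KI_Half without overlap. Such a separation was seen for 0.282% of all genes tested. On the control diet Sft2d3 had 4.16 to 6.48 CPM in WT_Con and 3.53 to 4.60 in KI_Con, which overlapped. It changed by -0.26 ± 0.15 in WT and 0.76 ± 0.16 in KI. Its interaction was 1.02 ± 0.22.

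**Figure D4:**
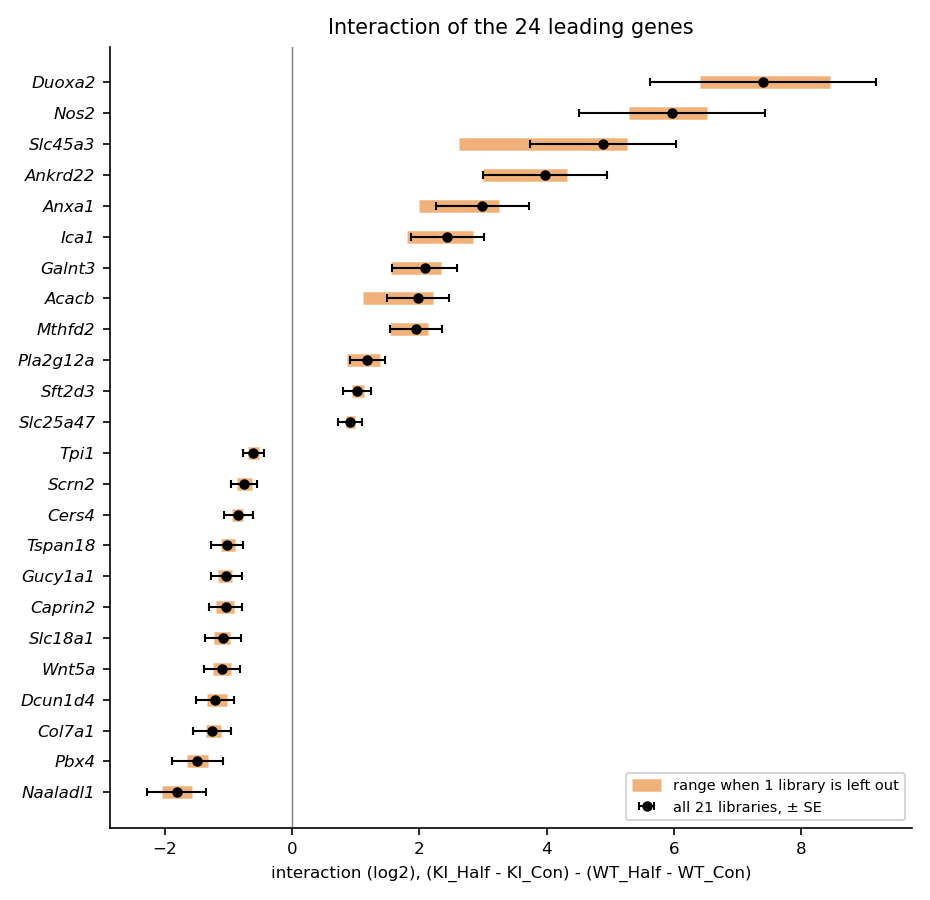
Interaction (log2, x axis) of the 24 leading genes in the fit of 21 libraries (point, with its SE as a bar) and the range when single libraries were left out in turn (orange band). The positive bands are wide for Slc45a3 (2.62 to 5.26) and Anxa1 (1.99 to 3.25) and narrow for Slc25a47 (0.84 to 0.99). Among negative bands that of Gucy1a1 runs from -1.16 to -0.94 and that of Naaladl1 from -2.04 to -1.56.

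Leading negative genes had values from -0.61 (Tpi1) to -1.81 (Naaladl1), against 0.92 (Slc25a47) to 7.40 (Duoxa2) for the leading positive genes. Their ranges with single libraries left out were narrower than those of most leading positive genes. Slc25a47 (0.84 to 0.99) and Sft2d3 (0.94 to 1.14) on the positive side were as narrow. Gucy1a1 (ENSMUSG00000033910, chromosome 3, 82092427 to 82145789, minus strand), a subunit of the nitric oxide receptor guanylate cyclase, had 12.5, 13.6, 11 and 15 CPM in WT_Con and 15.1, 14.3, 15.0 and 14.7 in KI_Con. It ran from 8.72 to 15.8 CPM in WT_Half (median 11.4) and from 5.09 to 9.61 in KI_Half (median 6.29). Every KI_Half library lay below every control library of both genotypes, and KI_Half overlapped WT_Half from 8.72 to 9.61. KI_Half and KI_Con lay apart, in either direction, for 27.3% of all genes tested. Gucy1a1 changed by -0.11 ± 0.17 in WT and -1.14 ± 0.17 in KI. Its interaction was -1.03 ± 0.24 (adjusted p of 0.327 with edgeR, 0.0237 with DESeq2 and 0.0209 with limma-voom with weights). It was -0.96 without WT_Con 3 and -0.97 without the acinar-rich controls.

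Wnt5a, a Wnt ligand of the stroma, had 8.12 to 14.2 CPM in WT_Con, 12.8 to 15.6 in KI_Con, 8.00 to 16.1 in WT_Half and 4.63 to 7.49 in KI_Half, with an interaction of -1.10 ± 0.28. Both Wnt5a and Tspan18, a tetraspanin (-1.02 ± 0.26), were lower in every KI_Half library than in every WT_Half library. These groups lay apart, in either direction, for 0.282% of all genes tested. Col7a1, the collagen of anchoring fibrils, had -1.26 ± 0.30. For all 12 negative genes KI_Half lay wholly below KI_Con, where 27.3% of all genes tested had these groups apart in either direction. For 8 of them KI_Con lay wholly above WT_Con, against 4.58% of all genes apart in either direction. The choice by interaction favours both. The 12 values ran from -1.61 (Tspan18) to -0.40 (Tpi1) without the acinar-rich controls. Slc18a1, the monoamine transporter of enteroendocrine vesicles, was at 5.51 to 8.54 CPM in WT_Con and 9.18 to 14.4 in KI_Con, and its interaction was -1.08 ± 0.28. The others were Naaladl1, an ileal peptidase (-1.81 ± 0.47), the homeobox gene Pbx4 (-1.49 ± 0.40), Dcun1d4 of protein neddylation (-1.21 ± 0.29), the RNA-binding Caprin2 (-1.04 ± 0.26), the ceramide synthase Cers4 (-0.84 ± 0.23), Scrn2 (-0.75 ± 0.20) and the glycolytic Tpi1 (-0.61 ± 0.17).

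Matrix genes leaned the same way. Of 31 fibroblast and matrix genes 22 were negative with a median of -0.24. By unadjusted p 7 were negative and 2 positive, where 6.09% of all genes tested were negative and 6.63% positive. The median was -0.37 without KI_Half 5 and -0.13 without KI_Con 4. Thbs2, a matrix protein of fibroblasts, had 3.35 to 5.92 CPM in KI_Half and 5.45 to 13.2 in the other 15 libraries, an interaction of -0.98 ± 0.30, and -1.66 without the acinar-rich controls. Col6a3, a chain of collagen VI, had -0.85 ± 0.27. The 2 positive genes were the crosslinking enzyme Lox (2.81 ± 1.05) and the protease inhibitor Timp1 (1.25 ± 0.41). Lox had 1.75 without WT_Con 3 and -1.68 without the acinar-rich controls. The smooth muscle list had a median of -0.14, with 6 of 15 positive, and 0.03 without WT_Con 2.

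Brush border genes of digestion and sugar uptake had a negative interaction for all 26 tested, with a median of -0.72, from a median change of -0.15 in WT and -0.95 in KI. By unadjusted p 10 were negative and 0 positive, where 6.09% of all genes tested were negative and 6.63% positive. Limma-voom with weights called 15 (adjusted p under 0.05), where it called 4.25% of all genes as negative. EdgeR and DESeq2 called 0 of the list. Anpep (ENSMUSG00000039062, chromosome 7, 79821803 to 79861059, minus strand), aminopeptidase N, had 870, 745, 169 and 304 CPM in WT_Con and 1020, 861, 602 and 522 in KI_Con. It ran from 382 to 730 CPM in WT_Half (median 679) and from 162 to 490 in KI_Half (median 305). KI_Half lay wholly below KI_Con, WT_Half lay within the WT_Con range, and WT_Con 3 lay near the lowest KI_Half library. KI_Half and KI_Con lay apart, in either direction, for 27.3% of all genes tested. The Anpep interaction was -1.49 ± 0.50, and -1.19 without WT_Con 3. Enpep, aminopeptidase A, had -1.25 ± 0.43, the lactase gene Lct -1.60 ± 0.77 and the glucose carrier Slc5a1 -0.72 ± 0.40. These 4 had -0.55, -0.30, -0.87 and -0.21 without the acinar-rich controls. With single libraries left out, 5 to 19 genes of the list were negative by unadjusted p, the highest count without KI_Half 7. In that fit 1757 of all 17006 genes were negative by unadjusted p.

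The mean log2 CPM of the brush border list was 8.87, 8.87, 7.76 and 8.34 in WT_Con and 9.14, 9.06, 8.76 and 8.82 in KI_Con. It was 8.03 to 8.56 in 6 WT_Half libraries and 7.13 in WT_Half 1, and 7.40 to 7.85 in 5 KI_Half libraries and 8.52 in KI_Half 7. WT_Half 1 thus lay below every KI_Half library, and KI_Half 7 lay within the WT_Half range. The list median was -0.86 without WT_Half 1, -0.92 without KI_Half 7, -0.57 without WT_Con 3 and -0.29 without the acinar-rich controls. In the last of these fits 22 list genes were negative and 4 positive. KI_Half 7 was also low for Duoxa2 and Nos2. KI_Half 6 was lower still for both genes, yet was among the 5 KI_Half libraries at 7.40 to 7.85 for this list.

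Other absorptive programmes were negative by smaller amounts. Fat absorption and chylomicron genes were negative for 22 of 22 (median -0.42), xenobiotic enzymes for 29 of 32 (median -0.63) and respiratory chain subunits for 33 of 33 (median -0.24). Iron, calcium and zinc handling was negative for 17 of 20 (median -0.43). By unadjusted p these 4 lists held 3, 6, 5 and 3 negative genes, and 0, 0, 0 and 1 positive. Of all genes tested, 6.09% were negative and 6.63% positive by unadjusted p. Without the acinar-rich controls their medians were -0.16, -0.25, -0.01 and -0.30. Ucp2, a mitochondrial carrier on the list of fatty acid oxidation, had -0.74 ± 0.24, and Acot1, a thioesterase induced through PPAR-alpha, 1.21 ± 0.47, with 3.81 to 7.56 CPM in WT_Con, 2.43 to 4.21 in KI_Con, 13.2 to 33.3 in WT_Half and 11.5 to 45 in KI_Half. The Acot1 value was 0.64 without the acinar-rich controls.

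**Figure D5:**
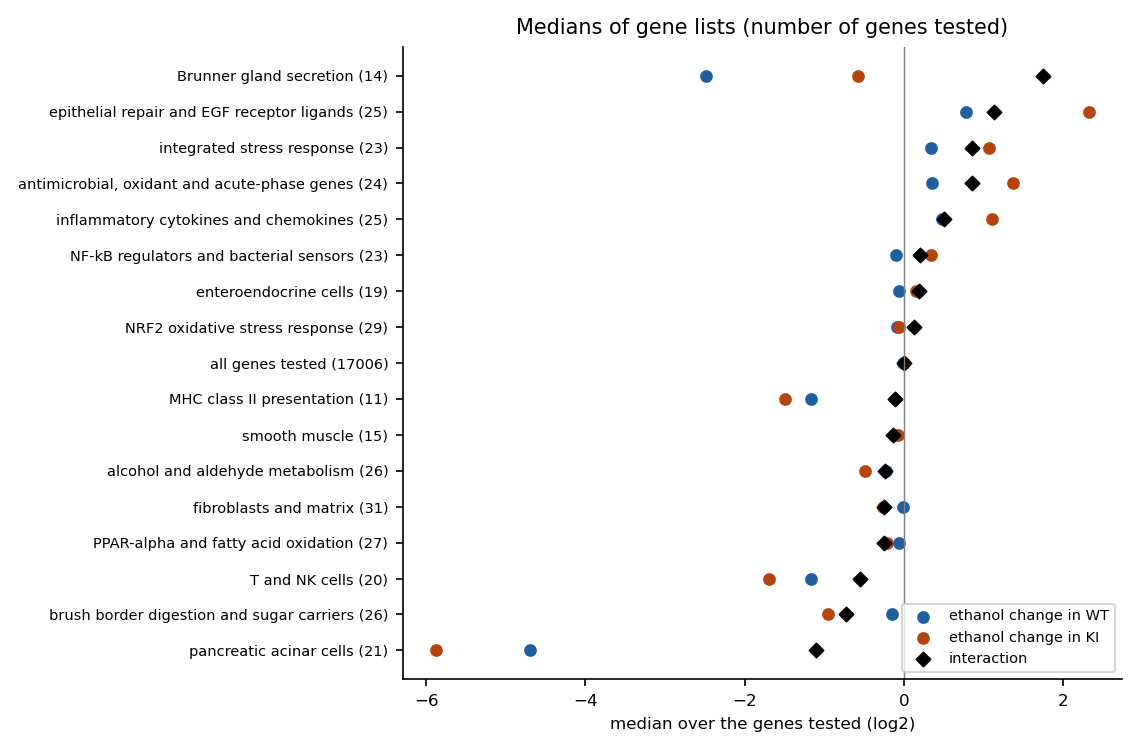
Median over the genes tested of 16 gene lists and of all genes (log2, x axis; number of genes in brackets), for the ethanol change in WT (blue), that in KI (orange) and the interaction (black diamond). The interaction median runs from 1.75 for Brunner gland genes to -1.11 for acinar genes, with the repair list at 1.13 and the brush border list at -0.72, and all genes at 0.0087.

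Alcohol and aldehyde metabolism showed no common direction beyond this lean, with 18 of 26 genes negative and a median of -0.23. By unadjusted p 4 were negative and 1 positive, where 6.09% of all genes tested were negative and 6.63% positive. Aldh4a1, which degrades proline, had 140, 132, 61.7 and 68.5 CPM in WT_Con, 226, 148, 150 and 203 in KI_Con, 11.9 to 120 in WT_Half (median 78.5) and 25.1 to 76.6 in KI_Half (median 51.9), an interaction of -1.50 ± 0.56. Aldh3b2 had 2.80 ± 1.06, which was 0.03 without WT_Con 3, the library with 15.5 CPM against 0.234 to 1.14 CPM in the other WT_Con libraries. Among NRF2 targets, which handle oxidants and glutathione, 15 of 29 were positive (median 0.13, and 0.05 without WT_Con 3), with 7 positive and 5 negative by unadjusted p. The reductase Akr1b8 had the highest value, 3.67 ± 0.97, with 111 CPM in WT_Con 3 and 1.33 without it.

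Tmem116, a neighbour of Aldh2 on chromosome 5 (ENSMUSG00000029452, 121451893 to 121524183, plus strand), gave the contrasting case of a genotype difference with no interaction beyond its error. It had 3.88, 5.42, 3.65 and 3.37 CPM in WT_Con, 16.2, 14.6, 13.6 and 12.5 in KI_Con, 2.21 to 6.16 in WT_Half and 7.94 to 15.0 in KI_Half. Knock-in lay above wild type on both diets without overlap. The genotypes lay apart, in either direction, for 4.58% of all genes tested on the control diet and 0.282% on ethanol. The Tmem116 interaction was -0.28 ± 0.32 (edgeR adjusted p = 0.711).

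Lymphocyte and MHC class II genes had negative median ethanol changes in both genotypes, and these were of larger size in knock-in duodenum. All 20 T and NK cell genes were negative for the interaction, with a median of -0.55 (change of -1.16 in WT and -1.69 in KI) and 0 at an unadjusted p under 0.05. The median was -0.24 without WT_Half 6 and -0.83 without KI_Half 7. In the latter fit 5 genes of the list had an unadjusted p under 0.05, as had 3262 of all 17006 genes. Nkg7, a granule protein of killer cells, had -1.27 ± 0.80, with 0.276 to 3.91 CPM in WT_Half and 0.293 to 3.65 in KI_Half, and -1.97 without KI_Half 7. B and plasma cell genes were negative for 11 of 13 (median -0.68, -0.40 without WT_Half 6 and -1.02 without KI_Half 7). MHC class II genes were negative for 7 of 11, with a median of -0.11 that was 0.33 without KI_Con 4 and -0.42 without KI_Half 7, and H2-Ob had -1.72 ± 0.62 and H2-DMb2 -1.42 ± 0.57. Neutrophil and macrophage genes differed in having positive median changes, 0.16 in WT and 0.72 in KI. For the interaction 11 of these 21 were positive, with a median of 0.04 that was -0.25 without KI_Half 5 and 0.22 without KI_Con 3.

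Markers of other tissue parts had medians that moved with few libraries. Brunner gland genes were positive for 13 of 14 with a median of 1.75, which was 0.52 without WT_Con 3, 4.34 without KI_Con 3 and -7.35 without the acinar-rich controls. Galnt12, a glycosyltransferase on that list, had 158 CPM in WT_Con 3 and 1.55 ± 0.57. Acinar genes were negative for 20 of 21 with a median of -1.11, and the colipase gene Clps had -1.15 ± 0.95 and the lipase gene Pnlip -2.06 ± 1.93. Without KI_Con 1 the acinar median was 0.39, and Pnlip had -0.66. With the Brunner gland level as a covariate, the medians were 0.78 for the stress list, 1.17 for the repair list and -0.72 for the brush border list, and with the acinar level as a covariate 0.84, 1.22 and -0.73. Beyond these values, the part of tissue composition in the results was not tested.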

How the data were processed

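Polyadenylated RNA of mouse duodenum was sequenced, and 21 libraries of 4 groups were used; the 4 WT_Full libraries entered only an alternative fit. Per the submitters' processing notes, the authors used FastQC, Trimmomatic, HISAT2, SAMtools, featureCounts and DESeq2 with GRCm38; no version is recorded, and annotation, strand setting and multimapping rules are likewise not given in the sources used here. Whole-number counts per gene, not normalised, are the deposited values used, per the file headers; 213 repeated lines of 17220 were merged, leaving 17007 identifiers. Symbols and positions came from GENCODE M21, and promoters from RefSeq (GRCm38.p6).

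The tools were R 4.3.3, edgeR 4.0.16 (quasi-likelihood F test, TMM, default low-count filter by group, no covariate, two-sided, Benjamini-Hochberg over 17006 genes, threshold 0.05), DESeq2 1.42.0 and limma 3.58.1. CPM use TMM over the 21 libraries. Totals of 27.3 to 44.8 M set the counting error of each value. Steps were tested on simulated data.

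Members, 37 lists, of which 16 are plotted, and tests were chosen with earlier results of these data known. Named genes are the 12 of smallest edgeR p per direction (none passed in edgeR) whose average log2 CPM was 1 or more. Antigen receptor segments and gene models that lack a proper symbol were left out. Further named genes are the 2 of smallest p in each of the 16 lists. Another 10 were chosen from earlier results on KI_Half against WT_Half in these data. They are Aldh2, Tmem116, Nos2, Lcn2, Il33, Ccl20, Cxcl1, Cebpb, Atf4 and Gdf15. That comparison is a part of the interaction, so the choice can favour large values. Other list members were chosen after their values were seen, and the 7 promoter genes for a sequence match. Alternatives were DESeq2, limma-voom, relative log expression factors, no filter, all 25 libraries, a replicate block, Brunner gland and acinar covariates, no acinar-rich controls, and leaving out each library. No 2 libraries of a group were identical.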

Additional observations from a re-analysis of the deposited data

Results flagged for a closer look

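Of 236 sets of 4 to 7 libraries checked gene by gene, 16 (6.78%) held a library far from the others of its group; chance gives about 1 in 20. WT_Con 3 was high for Anxa1, with 34.7 CPM against 5.78 to 7.64, and for Il33, with 52.4 against 7.87 to 10.8.

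WT_Half 1 was low for Dcun1d4, with 11.8 CPM against 19.8 to 25.1, for Cers4, with 53.4 against 83.8 to 116, for Aldh4a1, with 11.9 against 72.1 to 120, and for Nkg7, with 0.276 against 1.95 to 3.91. The values of these 4 genes without WT_Half 1 were -1.31, -0.94, -1.68 and -1.46.

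WT_Half 6 was high for Duoxa2, with 16.3 CPM against 0.851 to 2.86, and for H2-DMb2, with 5.21 against 1.47 to 2.45. WT_Half 3 was high for Smtn, a smooth muscle protein, with 88.7 CPM against 55.7 to 67.4.

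KI_Con 2 was high for Caprin2, with 26.8 CPM against 19.6 to 20.4, and low for Aldh3b2, with 0.454 against 1.10 to 1.21, and for Cxcl1, with 0.583 against 0.902 to 0.954. It had 0 CPM of Muc5ac, a count of 0 that allows up to 0.0972 CPM, against 2.29 to 3.37 in the other KI_Con libraries. KI_Con 3 was high for Cers4, with 118 CPM against 93.2 to 95.3, and for Galnt12, with 47.6 against 17.6 to 19.8. KI_Half 3 was high for Galnt12, with 52.1 CPM against 25.1 to 30. The causes were not tested.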

How the results depend on the processing

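The count of genes called was 0 with edgeR in every alternative run, 36 with DESeq2, 1138 with limma-voom and library weights and 0 without weights; the cause of these differences was not tested. Leaving out single libraries gave 0 to 0 calls, with smallest adjusted p from 0.0835 (without KI_Half 7) to 0.734 (without WT_Con 3). Of 59 genes named by the rule, 19 passed with DESeq2 and 30 with limma-voom with weights. Over all genes these tools called 0.225% and 6.69%. Many of the 59 were chosen for a small edgeR p in these same data, which favours such passes. The sign held in all other fits except the following, whose causes were not tested. Without the acinar-rich controls, which leaves 1 WT_Con library assumed to vary like the rest, Aldh3b2 was -0.37, Galnt12 -0.59, Muc5ac -11.54 (5.90 with all libraries) and Tmem116 0.26. With single libraries left out, Muc5ac ran from -2.64 (without WT_Con 3) to 6.32 and Clps from -1.69 to 0.0080 (without KI_Con 1). With the replicate block Muc5ac was -1.48. Pnlip was 1.03 with limma-voom with weights and 0.14 without weights.

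No pairing of libraries by replicate number was seen in their correlations. The 24 same-numbered pairs had a median correlation of -0.0259 (-0.357 to 0.363), and 6 were over 0.1. Of 21 libraries, 5 correlated best with their own number. Whether same-numbered libraries belong together is not known. The replicate block gave 0 calls and 1966 genes at an unadjusted p under 0.05, against 2162. Depth limits mainly genes near 1 CPM, such as Nos2 in the controls.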

Other observations

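Cholesterol synthesis genes had a positive interaction for 18 of 22 genes tested, with a median of 0.49 (change of 0.02 in WT and 0.56 in KI). With unadjusted p under 0.05, 5 were positive and 0 negative, where 6.63% of all genes tested were positive and 6.09% negative. The median was 0.16 without WT_Con 3, and the count 1 to 11 with single libraries left out. The sterol cyclase Lss had 1.24 ± 0.43 (0.74 without WT_Con 3) and Pmvk of the mevalonate pathway 1.15 ± 0.35. Cell cycle and DNA replication genes were positive for 24 of 26 (median 0.24, 1 positive by unadjusted p). Without WT_Half 1 this median was 0.57 with 11 positive by unadjusted p, and without WT_Con 3 it was 0.11 with 0. Of all 17006 genes, 2100 were positive by unadjusted p without WT_Half 1. Crypt stem cell genes were positive for 14 of 17 (median 0.38, 5 positive and 1 negative), with a median of 0.58 without WT_Half 1 and -0.10 without the acinar-rich controls.

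Enteroendocrine genes were positive for 14 of 19 with a median of 0.20, which was 0.10 without WT_Con 1 and 0.40 without WT_Con 3. Tac1, which encodes substance P, had 3.65 to 7.12 CPM in WT_Con, 3.65 to 5.49 in KI_Con, 4.59 to 7.91 in WT_Half and 7.81 to 16.9 in KI_Half, an interaction of 1.02 ± 0.33. The granin Chgb had 0.64 ± 0.25. The monoamine transporter Slc18a1 of the same cells was on the negative side at -1.08 ± 0.28. Lists with medians near that of all genes were p53 targets (0.05, 15 of 24 positive), endoplasmic reticulum chaperones (0.02, 11 of 22) and tight junctions (0.04, 14 of 26). The p53 and chaperone medians were -0.02 and -0.09 without WT_Con 3. Interferon-stimulated genes were positive for 6 of 30 (median -0.28), with 0 positive and 1 negative by unadjusted p. Without WT_Con 1 the median was -0.80 with 9 negative, and without WT_Con 3 it was -0.09.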
